A study of Mus musculus with 4 samples.

Results

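The genes described here are 10 transcripts that signalling through the kinase ERK is known to induce and whose products act back on that signalling or carry it to the genome: the Sprouty genes Spry1, Spry2 and Spry4, the Sprouty-related genes Spred1 and Spred2, the dual-specificity phosphatase genes Dusp4, Dusp5 and Dusp6, and the ETS transcription factor genes Etv4 and Etv5. They were chosen by symbol, with earlier results of these data known. Every probe set that the platform annotation assigns to exactly 1 of these symbols was taken. This gave 28 probe sets of 45037 on the array and 10 genes of 18193 that could be named. A gene with several probe sets was represented by the one with the highest mean signal over the 4 arrays, called its main probe set. The arrays were hybridised with total RNA of undifferentiated 3T3-MEFs, mouse embryonic fibroblasts passaged into permanent lines and harvested when they had grown to confluence. The groups were SMRTmRID cells (2 arrays) and wild-type cells (2 arrays). SMRT is a corepressor that nuclear receptors use to keep target genes silent, and in SMRTmRID its receptor interaction domains are mutated, in cells derived from mutant mice. The labels list no treatment for either group and do not say how many embryos or lines each stands for. The arrays of a genotype are labelled technical replicates, so the p-values measure the spread between such arrays and not between cell lines, and genotype and cell line cannot be told apart.

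When a growth factor binds its receptor tyrosine kinase, adaptor proteins bring an exchange factor to Ras, and Ras starts the Raf, MEK and ERK kinase cascade. Active ERK enters the nucleus and induces genes whose products dampen the same cascade: Sprouty and Spred proteins act near the membrane on the steps around Ras and Raf, and dual-specificity phosphatases remove the activating phosphates from ERK itself. Etv4 and Etv5 belong to the PEA3 group of ETS factors, which are typical outputs of fibroblast growth factor signalling. ERK activity itself was not measured on these arrays, which report transcript levels.

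The upstream sequences of genes that moved together are shown first, beside that of the gene that moved the other way. RefSeq promoter windows (build GRCm38.p6) were taken by symbol for 7 of the 10 genes, in 8 windows because Etv5 has several annotated starts. No window was used for Spry4, Dusp4 and Etv4, and not all chromosomes were searched for windows of the 10 genes. The 250 bases before the annotated start are printed for 3 genes that were higher in SMRTmRID cells and for Dusp5, which was lower. They are Spry1 at chr3:37639697-37639946 (plus strand), Spry2 at chr14:105896820-105897069 (minus strand), Dusp6 at chr10:99262981-99263230 (plus strand) and Dusp5 at chr19:53528895-53529144 (plus strand). Capitals mark the core GGAA of ETS factor motifs on either strand (written TTCC on the other) and the CArG box, the motif of serum response factor.
Spry1: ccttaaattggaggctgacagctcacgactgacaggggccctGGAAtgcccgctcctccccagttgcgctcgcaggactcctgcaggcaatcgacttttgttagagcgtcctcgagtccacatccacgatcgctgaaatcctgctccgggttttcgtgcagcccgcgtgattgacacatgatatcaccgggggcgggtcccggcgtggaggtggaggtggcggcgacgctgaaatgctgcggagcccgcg
Spry2: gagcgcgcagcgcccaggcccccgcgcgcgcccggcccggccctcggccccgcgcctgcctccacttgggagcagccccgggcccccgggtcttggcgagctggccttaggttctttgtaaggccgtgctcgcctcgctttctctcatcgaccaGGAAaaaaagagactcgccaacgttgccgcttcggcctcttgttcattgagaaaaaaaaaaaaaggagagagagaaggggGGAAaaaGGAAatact
Dusp6: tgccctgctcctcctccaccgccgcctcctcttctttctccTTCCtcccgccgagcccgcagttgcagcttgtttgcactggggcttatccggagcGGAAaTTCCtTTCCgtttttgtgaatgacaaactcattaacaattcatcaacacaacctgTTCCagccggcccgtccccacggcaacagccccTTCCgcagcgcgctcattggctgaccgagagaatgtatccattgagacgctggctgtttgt
Dusp5: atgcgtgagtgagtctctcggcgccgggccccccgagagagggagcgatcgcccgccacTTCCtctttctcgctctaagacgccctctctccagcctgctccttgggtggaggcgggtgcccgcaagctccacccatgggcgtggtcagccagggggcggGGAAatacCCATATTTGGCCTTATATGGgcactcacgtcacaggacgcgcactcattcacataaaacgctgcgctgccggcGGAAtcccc

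The GGAA core is common: it occurred in 93.4% of 32851 windows of the same length over all annotated genes, and in 7 of the 8 windows of these genes. It was found once in the Spry1 window, with 3 matches in Spry2, 4 in Spred1, 7 in Spred2, 6 in Dusp6 and 3 in Dusp5, and 0 and 4 in the Etv5 windows. The CArG box occurred in 1.47% of all windows and, among these 8, in that of Dusp5, where 2 matches lie next to each other. The longer ETS motif CCGGAA (which contains GGAA, 12.0% of all windows), the AP-1 motif TGANTCA (6.75%), the cyclic AMP response element TGACGTCA (1.55%) and the nuclear receptor hexamer AGGTCA (14.0%) were searched on both strands and matched none of the 8 windows. These matches are letters in a window and were not set against binding data.

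Of the 10 genes, 9 had a mean signal above the filter of 35.1, the median of all values, and were tested. In SMRTmRID cells 7 of these rose (Spry1, Spry2, Spry4, Spred1, Spred2, Dusp6 and Etv5), 1 fell (Dusp5) and 1 did not pass (Etv4), at a Benjamini-Hochberg adjusted p under 0.05 by limma over 11057 genes. Among all tested genes 65.2% were called in either direction, 30.3% as higher and 35.0% as lower. Most genes above the filter were thus called, and the size of each difference is given beside its call. A log2 difference of at least 1 was reached by 4 of the 9 tested genes (Spry1, Spry2, Spry4 and Spred1) and by 9.70% of all tested genes. Both arrays of one genotype lay above both of the other for 8 of the 9, against 81.5% of all tested genes. Spry4 passed the filter only through its SMRTmRID arrays and Dusp5 only through its wild-type arrays. Their genotype means thus had to differ in these directions, and their calls follow in part from how they passed. Differences were taken on the log2(signal + 16) scale as SMRTmRID minus wild-type, signals are linear MAS5 values, and an array of bulk RNA cannot tell fewer expressing cells from less RNA per cell.

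**Figure D1:**
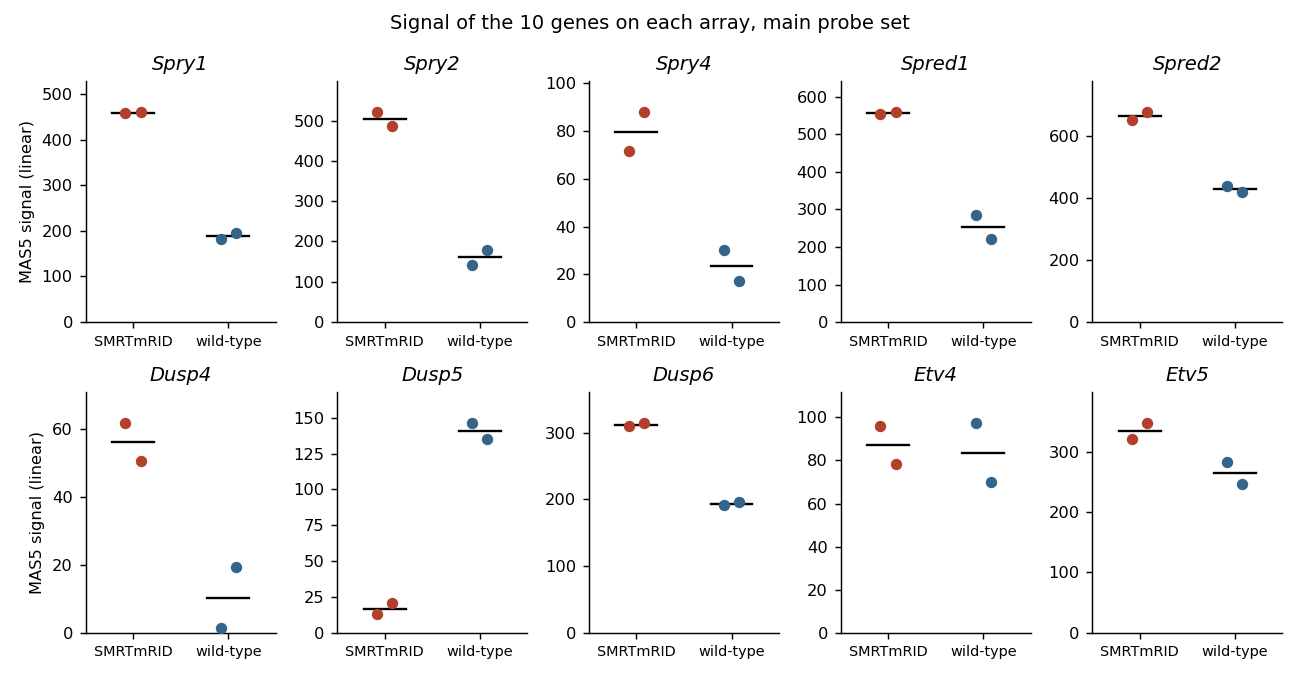
MAS5 signal (linear axis from 0, each panel with its own scale) of the main probe set of each gene on each array; points are arrays, SMRTmRID left and wild-type right, and bars are means of 2 arrays. Both SMRTmRID arrays lie above both wild-type arrays for all genes but Dusp5, where they lie below, and Etv4, where the arrays interleave.

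The 3 Sprouty genes were each higher in SMRTmRID cells. Sprouty proteins are membrane-associated inhibitors that receptor signalling itself induces. Spry1 had signals of 458 and 459 on the SMRTmRID arrays, against 183 and 196 on the wild-type arrays. Both SMRTmRID arrays were clearly above both wild-type arrays, with a ratio of means of 2.42 and a log2 difference of 1.21 with an SE of 0.09 (limma, adjusted p = 1.99e-06). Spry2, the best studied mammalian Sprouty gene, had signals of 520 and 485 in SMRTmRID and 141 and 179 in wild-type. Its log2 difference of 1.56 with an SE of 0.12 (limma, adjusted p = 2.25e-06) was the highest of the 9 tested genes and lay above 95.8% of all tested genes. Spry4, an inhibitor known to act on Ras activation by growth factors, was dimmer, at 71.7 and 87.8 in SMRTmRID and 30.2 and 17.2 in wild-type. Its log2 difference was 1.29 ± 0.26 (SE, adjusted p = 0.00188 by limma), and because its wild-type signals are low it was 0.71 with a pseudocount of 64 and 1.76 with a pseudocount of 1. The probe sets of Spry4 do not all reach the filter: the other 3 averaged 4.06 to 27.4 over the arrays, and their log2 differences, which were not tested, were 0.13, 0.56 and 0.84. The second Spry2 probe set, also below the filter, had signals of 35.2 and 41.5 in SMRTmRID and 24.3 and 18.4 in wild-type.

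Both Spred genes were higher as well. Spred proteins hold neurofibromin, the Ras inactivator encoded by Nf1, at the membrane. The main probe set of Spred1 had signals of 553 and 558 in SMRTmRID and 285 and 222 in wild-type, a ratio of means of 2.19 and a log2 difference of 1.09 with an SE of 0.11 (limma, adjusted p = 1.73e-05). That of Spred2 had 654 and 677 in SMRTmRID and 438 and 421 in wild-type, a ratio of 1.55 and a log2 difference of 0.61 with an SE of 0.07 (limma, adjusted p = 3.11e-05). The groups did not overlap for either gene. Whether the difference of Spred1 exceeds that of Spred2 was not tested. Nf1 itself had a log2 difference of 0.48 and was called higher; it is 1 of the other inhibitors described further on.

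Spred1 and Spred2 have the most probe sets and so show how far readings of the same gene vary. All 8 probe sets of Spred1 had a positive log2 difference. The 6 above the filter were all called higher in a separate fit over 22481 probe sets, with log2 differences between 0.92 and 1.40; in that fit 59.5% of all probe sets were called, and 31.2% as higher. The 2 Spred1 probe sets below the filter had log2 differences of 0.17 and 0.44 and overlapped between the genotypes. For Spred2 all 5 probe sets were positive, between 0.58 and 0.86; of 3 tested, 2 were called higher and 1 was not (log2 difference 0.60, adjusted p = 0.0762 by limma). Over all 28 probe sets the log2 difference was positive for 27, of which 10 were below the filter, and negative for 1. The share of positive differences over all probe sets was not computed, and the median difference over all tested genes was -0.05. The second Etv4 probe set, below the filter, had a positive difference of 0.11 but mean signals of 14.6 in SMRTmRID and 15.9 in wild-type. Of the 28, 18 were above the filter, of which 13 were called higher, 1 lower and 4 not called. Probe sets of a gene read the same RNA and are not replicates.

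**Figure D2:**
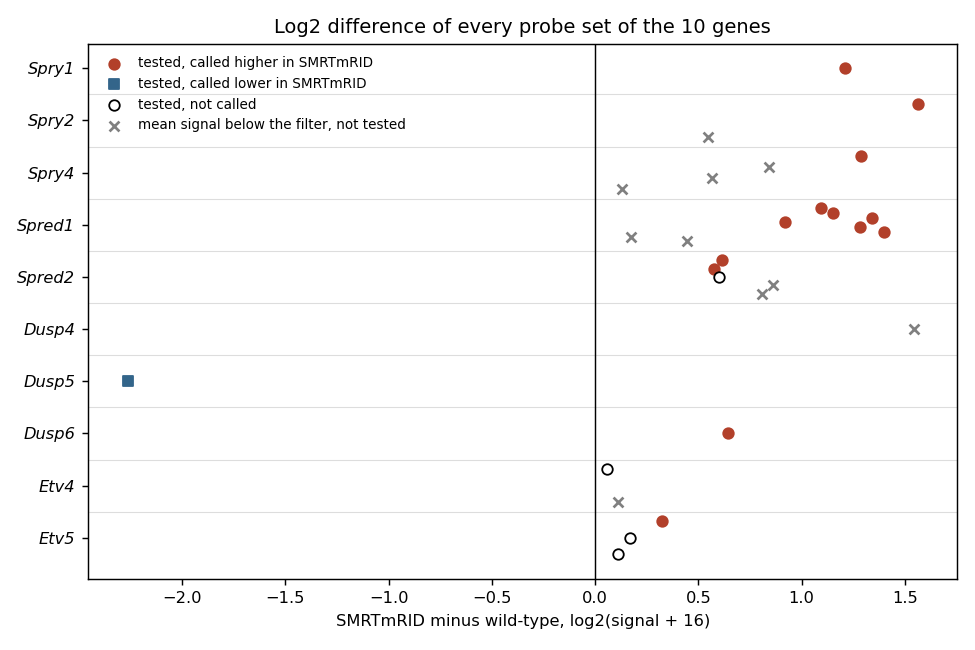
Log2(signal + 16) in SMRTmRID minus that in wild-type for all 28 probe sets by gene; filled circles were called higher, the square lower, open circles were tested and not called, and crosses were below the filter. The 27 positive values run from 0.06 to 1.56, and the Dusp5 probe set stands alone at -2.26.

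The phosphatase genes did not move together. Dusp6 encodes a cytoplasmic phosphatase specific for ERK and had signals of 310 and 314 in SMRTmRID and 192 and 196 in wild-type. The arrays of each genotype were close to each other and the groups were apart, with a ratio of means of 1.61 and a log2 difference of 0.65 with an SE of 0.09 (limma, adjusted p = 0.000223). Dusp5 encodes a nuclear phosphatase that binds ERK, and it had signals of 13.0 and 20.7 in SMRTmRID and 146 and 135 in wild-type. It was at a low signal in SMRTmRID cells, and its ratio of means, wild-type over SMRTmRID, was 8.37. Dusp5 fell by 2.26 on the log2 scale with an SE of 0.22 (limma, adjusted p = 1.61e-05), and 99.1% of all tested genes had a higher difference; its log2 difference was -1.34 with a pseudocount of 64 and -3.02 with a pseudocount of 1, and it was called with each. Dusp4 encodes another nuclear phosphatase of ERK and related kinases. Its only probe set had signals of 61.9 and 50.7 in SMRTmRID and 1.34 and 19.3 in wild-type, so that both SMRTmRID arrays were above both wild-type arrays. Its mean of 33.3 was below the filter and it was not tested; its log2 difference was 1.54, and without the filter it was called higher (adjusted p = 0.0190 by limma).

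The PEA3 factor genes differed little. Etv4 had signals of 95.9 and 78.2 in SMRTmRID and 97.3 and 70.0 in wild-type. The groups overlapped, and the log2 difference of 0.06 with an SE of 0.20 (limma, adjusted p = 0.819) was smaller than the spread between arrays; its sign turned with median centring (-0.11), with quantile normalization (-0.13), without wild-type replicate 2 (-0.14) and without SMRTmRID replicate 1 (-0.07), and it was called under none of 13 alternatives. Etv5 had signals of 321 and 347 in SMRTmRID and 283 and 246 in wild-type. Its groups did not overlap, and its log2 difference of 0.32 with an SE of 0.10 (limma, adjusted p = 0.0173) was the lowest of the 7 genes called higher. Etv5 was the call that held least: it was lost with median centring (adjusted p = 0.258), with the mean of its probe sets (0.140), without wild-type replicate 2 (0.101) and without SMRTmRID replicate 2 (0.0922), all by limma. Its other 2 probe sets had log2 differences of 0.17 and 0.11 and were not called.

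Other genes of the pathway were taken from 7 lists by role, which held 142 symbols; 132 had a probe set named here and 114 were tested. Of these 44 rose and 37 fell, against 30.3% and 35.0% of all tested genes. Of the 114, 9 passed the filter through 1 genotype only, the mean of the other being below it: Hgf, Igf2, Vegfc, Mertk and Spry3 through SMRTmRID and Dusp8, Fgfr4, Flt1 and Ror1 through wild-type. All but Ror1 were called, and as with Spry4 and Dusp5 their calls follow in part from how they passed and their sizes depend on the pseudocount. The list counts given next stand against the same shares of 30.3% higher and 35.0% lower. The medians given with them are of log2 differences, and that of all 11057 tested genes was -0.05.

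Other inhibitors that act on receptors or Ras were higher or not called. Limma called 10 of 17 tested genes higher and 0 lower, and 0 were lower at an unadjusted p under 0.05; the list median was 0.30. Lrig1, a membrane protein that promotes the turnover of receptors of the EGF family, had signals of 1160 and 1239 in SMRTmRID and 117 and 155 in wild-type, a log2 difference of 3.01 with an SE of 0.11 (limma, adjusted p = 3.21e-08). Socs5, a suppressor of cytokine and EGF receptor signalling, rose by 1.60, and Spry3, the remaining Sprouty gene, rose by 1.52, with signals of 88.8 and 75.7 in SMRTmRID and 29.3 and 9.67 in wild-type. Spry3 is among the 10 although it passed the filter only through SMRTmRID, and its log2 difference was 0.82 with a pseudocount of 64. With median centring 6 members of this list were called higher and 1 lower.

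Other MAP kinase phosphatases went mostly the other way. Limma called 5 of 7 tested genes lower and 1 higher, and the list median was -0.70. The lower call of Dusp3 lay close to the threshold, with a log2 difference of -0.35 (limma, adjusted p = 0.0495). Dusp8, a phosphatase of the stress kinases JNK and p38, had signals of 11.3 and 12.8 in SMRTmRID and 164 and 237 in wild-type, and fell by 2.93 on the log2 scale. Dusp8 is among the 5 although it passed the filter only through wild-type; its log2 difference was -1.78 with a pseudocount of 64 and -3.93 with a pseudocount of 1, and with its probe set of highest median signal it fell by 1.18. Dusp14 had signals of 193 and 195 in SMRTmRID and 569 and 591 in wild-type. Dusp1, the immediate early phosphatase, had 819 and 854 in SMRTmRID and 1431 and 1324 in wild-type, a log2 difference of -0.71 with an SE of 0.06 (limma, adjusted p = 5.16e-06). Dusp16 was the member that rose, by 0.66. With the filter at the 75th percentile, 2 phosphatase genes were called lower.

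Other transcripts that ERK is known to induce were more often lower than higher. Limma called 17 of 26 tested genes lower, 5 higher and 4 neither, and the list median was -0.39. Plaur, the urokinase receptor gene, had signals of 153 and 171 in SMRTmRID and 616 and 631 in wild-type, a log2 difference of -1.85. Epha2 and Epha4, ephrin receptor genes, had log2 differences of -1.77 and -1.34, and Hbegf, an EGF receptor ligand gene, of -1.77. Ccnd1, the cyclin D1 gene that links ERK to cell cycle entry, had signals of 951 and 962 in SMRTmRID and 2491 and 2272 in wild-type, a log2 difference of -1.30 with an SE of 0.06 (limma, adjusted p = 8.01e-08). Phlda1 had a log2 difference of -0.49. The immediate early gene Egr1 was at 2570 and 2729 in SMRTmRID and 2631 and 2477 in wild-type and was not called (limma, adjusted p = 0.408), except with quantile normalization, where its log2 difference was 0.18 (limma, adjusted p = 0.0113); with median centring it was -0.11. Fos had signals of 272 and 265 in SMRTmRID and 141 and 120 in wild-type and rose by 0.96 on the log2 scale, and Vegfa and Ereg rose by 1.36 and 1.07. With median centring 3 of the list were called higher.

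The Sprouty and Spred genes and these transcripts are all used as readouts of ERK. The 5 Sprouty and Spred genes had log2 differences between 0.61 and 1.56 on their main probe sets. Ccnd1, Epha2, Epha4 and Phlda1 had values between -1.77 and -0.49, Egr1 of 0.05 and Fos of 0.96. The Dusp and Etv genes, also induced by ERK, had -2.26 for Dusp5, 0.06 for Etv4, 0.32 for Etv5 and 0.65 for Dusp6. Dusp4, which was not tested, had 1.54. The Sprouty, Spred, Dusp and Etv genes thus ran from -2.26 to 1.56, a range that holds the values of these named transcripts. No test was made of the difference between the lists.

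**Figure D3:**
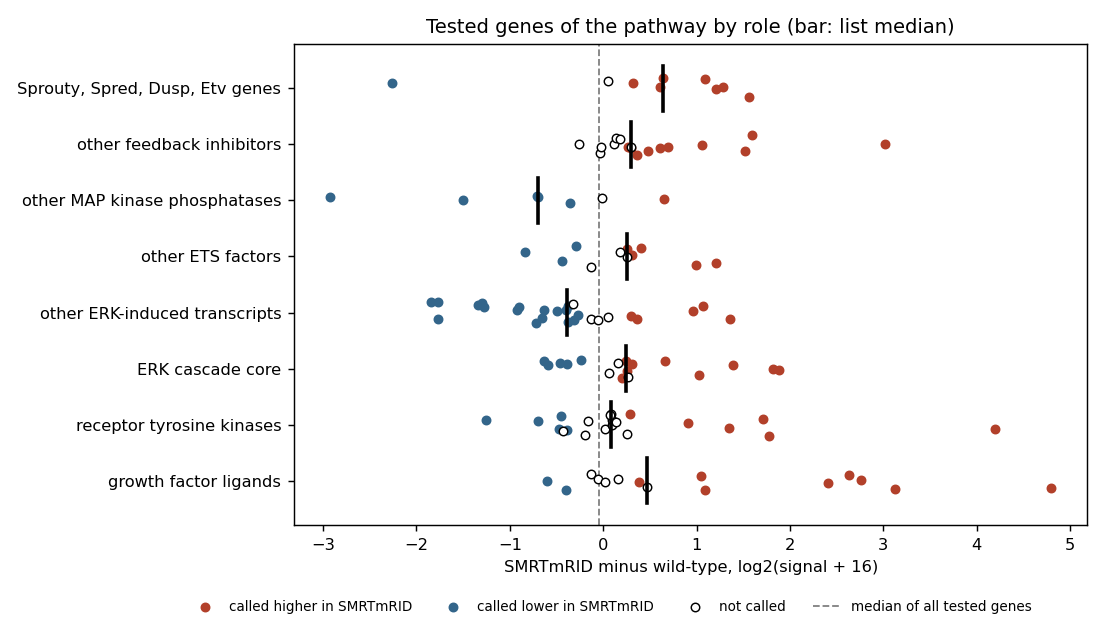
Log2(signal + 16) in SMRTmRID minus that in wild-type for every tested gene of the pathway, by role; each point is a gene, filled where called, black bars are list medians and the dashed line is the median of all tested genes, -0.05. Medians are 0.65 for the Sprouty, Spred, Dusp and Etv genes, -0.70 for other MAP kinase phosphatases and -0.39 for other ERK-induced transcripts. The list labelled other feedback inhibitors holds other inhibitors that act on receptors or Ras, whether or not ERK induces them, and its median is 0.30.

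Among other ETS factors, limma called 5 of 11 tested genes higher (45.5%) and 3 lower (27.3%), against 30.3% and 35.0% of all tested genes. The list median was 0.25. Gabpa rose by 1.21, Ets1 by 0.99 and Etv6 by 0.41, while Erf, an ETS repressor that ERK is known to inactivate by phosphorylation, had signals of 196 and 214 in SMRTmRID and 392 and 365 in wild-type and fell by 0.84 on the log2 scale. Ets2 and Elk4 had log2 differences of -0.44 and -0.29. With probe sets averaged, 3 of this list were called higher and 1 lower; Erf, Etv6 and Elk4 were then not called (adjusted p = 0.259, 0.224 and 0.180 by limma). With median centring 2 were called higher. Etv6 was also not called with median centring (0.0801), nor Elk4 without SMRTmRID replicate 1 (0.0809).

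Of the cascade itself, 17 of 25 listed symbols had a probe set named here. Of these 9 were called higher (52.9%), 5 lower (29.4%) and 3 neither, against 30.3% higher and 35.0% lower of all tested genes. The list median was 0.25. Sos1, the exchange factor that activates Ras, had signals of 686 and 691 in SMRTmRID and 173 and 175 in wild-type, a log2 difference of 1.89 with an SE of 0.08 (limma, adjusted p = 5.68e-08). Rps6ka3, a kinase downstream of ERK, rose by 1.82 and the scaffold gene Ksr1 by 1.39. The adaptor gene Gab1 fell by 0.63, the MEK gene Map2k2 by 0.59 and Mras by 0.47. With median centring 5 of the list were called higher.

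Upstream of the cascade, 6 of 21 tested receptor tyrosine kinase genes were called higher (28.6%) and 5 lower (23.8%), with a median of 0.09. Over all tested genes the shares were 30.3% and 35.0%. Of 15 tested growth factor genes, 8 were called higher (53.3%) and 2 lower (13.3%), with a median of 0.46. Among these 8, Hgf, Igf2 and Vegfc passed the filter only through SMRTmRID. Among the 5 receptor genes called lower, Fgfr4 and Flt1 passed it only through wild-type. With the filter at the 75th percentile, 5 growth factor genes were called higher and 1 lower, and 3 receptor genes lower. Pdgfra and Pdgfrb, the PDGF receptors of fibroblasts, rose by 4.20 and 1.78. Mertk, with signals of 77.6 and 76.3 in SMRTmRID and 2.45 and 27.4 in wild-type, passed the filter only through SMRTmRID; it rose by 1.72 on its main probe set, by 1.10 without wild-type replicate 1 and by 0.86 with a pseudocount of 64. Fgfr4, Flt1 and Erbb2 had log2 differences of -1.26, -0.70 and -0.47; the call of Flt1 was lost without a filter (adjusted p = 0.0620 by limma) and without wild-type replicate 1 (0.0728), wild-type replicate 2 (0.0788) or SMRTmRID replicate 2 (0.0681). Without wild-type replicate 1 or SMRTmRID replicate 2, 3 receptor genes in all were called lower. Hgf, the ligand of the receptor Met, had signals of 614 and 549 in SMRTmRID and 2.76 and 8.43 in wild-type, a log2 difference of 4.80 with an SE of 0.18 (limma, adjusted p = 3.41e-08). Hgf passed the filter only through SMRTmRID, and its log2 difference was 3.21 with a pseudocount of 64 and 6.61 with a pseudocount of 1. The same holds for Igf2, which rose by 3.12 and had a difference of 1.81 with a pseudocount of 64 and 4.53 with a pseudocount of 1. Gas6 rose by 2.76, whereas Nrg1 and Pdgfc had log2 differences of -0.60 and -0.40.

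Markers of the labelled cell type and of others were read on the same arrays. Of 10 fibroblast markers, Col1a1, Col1a2, Col3a1, Fn1, Vim and S100a4 had signals of at least 7567 on every array, while Thy1 and Fap had 3178 ± 8.37 and 478 ± 8.87 in SMRTmRID but 13.6 ± 9.95 and 6.62 ± 3.42 in wild-type (SD, n = 2). The remaining fibroblast markers, Pdgfra and Pdgfrb, had mean signals of 4959 and 6212 in SMRTmRID and 254 and 1799 in wild-type. Summed signals of 6 endothelial markers were 76.6 to 91.5 in SMRTmRID and 78.5 to 87.0 in wild-type, and none was tested. Those of 8 epithelial markers were 272 to 288 in SMRTmRID and 342 to 359 in wild-type, with Epcam called lower of 2 tested. Cdh1, which was not tested, had signals of 2.41 and 1.61 in SMRTmRID and 55.9 and 42.3 in wild-type. The Epcam call was lost without a filter (adjusted p = 0.0548 by limma), with the mean of probe sets (0.253), without wild-type replicate 1 (0.121) and without SMRTmRID replicate 2 (0.0795). Summed signals of 7 blood cell markers were 206 to 213 in SMRTmRID and 114 to 141 in wild-type, with Lyz2 called higher of 2 tested. Those of 6 skeletal muscle markers were 80.8 to 98.5 in SMRTmRID and 227 to 383 in wild-type, where Acta1 made up most, and those of 5 neural markers 344 to 351 in SMRTmRID and 759 in wild-type, with Nes and Tubb3 called lower of 4 tested. Lyz2, Thy1 and Fap passed the filter only through SMRTmRID and Acta1 only through wild-type. The summed signals of the epithelial, blood cell, muscle and neural lists did not overlap between the genotypes. For the epithelial, blood cell and neural lists, in this order, this rested on Epcam and Cdh1, on Lyz2, and on Nes and Tubb3. The lower muscle sums in SMRTmRID rested on Acta1. The other 5 muscle markers were below the filter and not tested. Their log2 differences were 0.96 for Myog, 0.91 for Des, 0.49 for Pax7, -0.02 for Myf5 and -0.23 for Myod1. Myog, Des and Pax7 thus went against Acta1, with both SMRTmRID arrays above both wild-type arrays. The sums therefore do not describe the lists as a whole, and the other genes of these lists were not tested or not called. The part of these lists in the results on the Sprouty and Spred genes was not tested.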

How the data were processed

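Total RNA from 4 samples was labelled with biotin and read on 1-colour Affymetrix arrays. The deposited values are intensities, a MAS5 signal on a linear scale for each probe set and array, per the submitters' processing notes; its mean without the lowest and highest 2% was 200.0 on every array. Detection calls were not used here. Of 45101 probe sets, 64 controls were left out; 34945 had 1 gene symbol in GEO's platform annotation, 932 had several, and 9160 had none here; neither kind was named. Symbols were updated by gene ID for 34741 probe sets from a table of GRCm38.p6. Genotypes (2 arrays each) were taken from the sample titles, and the number of arrays limits the precision.

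Signals were transformed to log2(signal + 16) and fitted with limma 3.58.1 in R 4.3.3 (lmFit, eBayes with a variance trend, no covariates) over all 11057 genes whose mean signal exceeded 35.1, and separately over 22481 probe sets, with Benjamini-Hochberg adjustment over all of them and two-sided p-values. The fit was tested on simulated data with independent noise of the spread between these technical replicates. Far fewer genes were changed in them than were called here. That test does not cover variation between cell lines. Over tested genes the correlation (Pearson's r) was 0.991 between arrays of a genotype and 0.860 to 0.861 between genotypes. The members and lists were chosen with earlier results of these data known. Named genes are the 10 members, up to 3 called genes with the greatest rise and 3 with the greatest fall of each list whose brighter genotype was above 64.7 (the 60th percentile) on each array, and Egr1, Fos, Ccnd1, Phlda1, Epha2, Epha4 and Dusp1. Nf1, Dusp3 and markers named otherwise were chosen after their values were seen. Listed genes with no named probe set are not analysed here. Alternatives were pseudocounts of 1 and 64, no filter or the 75th percentile as filter, median centring, quantile normalization, eBayes without a trend, averaged probe sets or the one of highest median, a block for the replicate number, and fits without each array. Figures were drawn with matplotlib 3.10.9.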

Additional observations from a re-analysis of the deposited data

How the results depend on the processing

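The 60 named genes, Dusp4 included, were recomputed under up to 14 alternatives. Of these values 777 kept their direction and side of the threshold, 26 lost the call, 2 gained it (Dusp4 without a filter, Egr1 with quantile normalization) and 5 turned in sign without being called: Etv4 at -0.13 with quantile normalization, -0.11 with median centring, -0.14 without wild-type replicate 2 and -0.07 without SMRTmRID replicate 1, and Egr1 at -0.11 with median centring. Leaving out each array in turn gave Etv4 between -0.14 and 0.26. Of the 10 genes, those called other than Etv5 were called under each alternative in which they passed the filter. With the filter at the 75th percentile, the count of these genes called lower was 0, because Dusp5 was then not tested, and on the level of probe sets 7 were called higher and 0 lower. The counts of the 10 genes called higher ranged from 6 to 7 when each array was left out in turn and were 5 with the mean of probe sets, where Spry4 fell below the filter, and 8 without a filter. Median centring moved the median of all tested genes by -0.16 and left 34.3% of all calls higher, against 46.4% without it; under it 29 genes of the other lists were called higher instead of 44. Quantile normalization moved the median by -0.06. The replicate numbers do not pair the arrays: deviations of same-numbered arrays correlated at 0.012, and with the replicate block the counts were 7 higher and 1 lower, 13 and 1 for probe sets, and 45 and 37 for the other lists. Signals near the pseudocount limit the sizes given for Dusp4, Dusp5 and Spry4.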
